A study of Homo sapiens with 3 samples.

Results

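The genes described here encode the chains of collagens and laminins, the 2 protein families to which the integrin CD49a binds outside the cell. They were taken by symbol: COL, a number, A and a number for collagen chains, and LAMA, LAMB or LAMC with a number for laminin chains, without antisense transcripts. This gave 56 of the 36601 genes in the files, 44 collagen chains and 12 laminin chains. Their transcripts were counted in single cells, captured in droplets, from islets that had been differentiated from the human embryonic stem cell line HUES8. Dispersed islet cells had been separated with magnetic beads on CD49a, the product of ITGA1, into a CD49a-positive and a CD49a-negative population, and unsorted cells served as the third group. All 3 groups were left to form new aggregates for 7 days and were then dispersed again, so the RNA was read 7 days after the sort. Each group had 1 library of 1 cell line, so no test could be made, and every interval below is a 95% interval of counting error only.

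Collagens are made of 3 chains wound around each other. Fibrillar collagens form the fibres of connective tissue, collagen IV forms the network of basement membranes, and collagen VI forms beaded filaments beside them. Laminins are cross-shaped trimers of 1 alpha, 1 beta and 1 gamma chain, and in islets most basement membrane lies along the capillaries, where endothelial cells make much of it. Integrin alpha 1 pairs with integrin beta 1 and is best known as a receptor for collagen IV and collagen I, with some binding of laminin.

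COL4A5 and COL4A6, which encode the alpha 5 and alpha 6 chains of collagen IV, are shown by sequence because they lie head to head on the X chromosome and were both highest in the same endocrine class. Their RefSeq starts (GRCh38.p14) are 379 bases apart, and COL4A6 has another start 1036 bases further into its own gene. The lines below give bases upstream of each start, 5′ to 3′ on the strand of the gene. COL4A5 is read at chrX:108439588-108439837 on the plus strand and COL4A6 at chrX:108439498-108439708 on the minus strand. All printed bases lie between the 2 starts. Capitals mark the 121 bases present in both lines, where the 2 windows overlap, so that the capitals of one line are the reverse complement of those of the other.
COL4A5: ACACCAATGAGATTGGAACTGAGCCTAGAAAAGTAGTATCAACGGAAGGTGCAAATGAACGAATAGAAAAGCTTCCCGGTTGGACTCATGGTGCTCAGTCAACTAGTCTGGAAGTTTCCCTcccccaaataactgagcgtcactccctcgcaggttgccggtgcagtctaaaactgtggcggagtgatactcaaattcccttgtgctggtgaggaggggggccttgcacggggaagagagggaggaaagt
COL4A6: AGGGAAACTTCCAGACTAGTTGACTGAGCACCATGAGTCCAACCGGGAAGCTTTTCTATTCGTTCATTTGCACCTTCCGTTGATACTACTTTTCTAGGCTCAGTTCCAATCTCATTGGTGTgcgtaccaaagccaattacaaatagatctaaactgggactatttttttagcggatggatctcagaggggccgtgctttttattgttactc
Short motifs were searched on both strands of the printed bases. The 39 bases left out next to the COL4A6 start were not searched, while the shares below are of full windows. The box CCAAT occurred once on each strand of the capitals and once more in the lower-case bases of the COL4A6 line, and 32.0% of 35116 RefSeq windows of 250 upstream bases held it on either strand. The core of ETS factor sites, CGGAAG, occurred once, on the strand of COL4A5, and 16.5% of windows held it. The box TATAAA, held by 10.7% of windows, did not occur in either line, nor did GGGCGG, the core of SP1 sites, held by 42.6%. A match is a description of these letters only.

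The 3 libraries held 88397368 to 127119509 UMIs (unique molecular identifiers, 1 per RNA molecule captured). After filtering, 2394 positive, 1976 negative and 2248 unsorted cells remained, with a median of 36997 to 48538.5 UMIs per cell. The filter removed 46.9%, 23.0% and 19.7% of the positive, negative and unsorted barcodes. Between 2 and 6 barcodes were shared by a pair of libraries. Clusters were made without the 56 genes, and classes were named from other markers. Beta-like cells, marked by INS and IAPP, made up 66.1% of kept positive cells, 21.3% of negative cells and 35.0% of unsorted cells. Enterochromaffin-like cells, the serotonin-making cells of the gut that also arise in these cultures, made up 3.88%, 20.5% and 20.9%, and alpha-like cells 10.2%, 26.0% and 21.0%, in the same order. Another 18.7%, 30.5% and 21.6% stayed unnamed. Among these was cluster 8 (1.71%, 14.3% and 6.14%), which had the enterochromaffin markers FEV, CBLN1 and SLC18A1 among its leading genes. It had 5 enterochromaffin markers raised and as many of another endocrine class, and was left unnamed for that tie. Levels are given in CPM (UMIs of a gene per 1e+06 UMIs of the cells named). A CPM is not scaled to gene length, so levels are compared between cells and libraries and not between genes. Values in triplets are for the positive, the negative and the unsorted library, in that order.

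A difference was counted when 1 CPM was added to both values and their ratio reached 2-fold, among genes with at least 5 CPM and 50 UMIs in the higher library. Of the 56 chains, 22 reached 5 CPM and 50 UMIs over all kept cells or in an endocrine class of some library, and those reported are described one by one. Over all kept cells, 19 chains could be compared between the positive and the negative library: 1 was higher in the positive library (COL6A6), 3 were lower (COL5A2, COL14A1 and COL6A2) and 15 stayed under 2-fold. Of all 12483 genes that could be compared, 2.42% passed the same rule, 0.969% higher in the positive and 1.45% higher in the negative library. The median log2 ratio of the 19 chains was -0.45, against -0.06 for all genes compared. Against the unsorted library, the positive library had 1 chain higher (COL6A6) and 1 lower (COL5A2) of 17, where 0.7% of all genes passed. The negative library had 1 chain lower than the unsorted (COL6A6) of 19, where 0.129% passed. These 3 comparisons share libraries and are not independent. In sums over all cells, fewer cells of a type and less RNA per cell cannot be told apart.

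**Figure D1:**
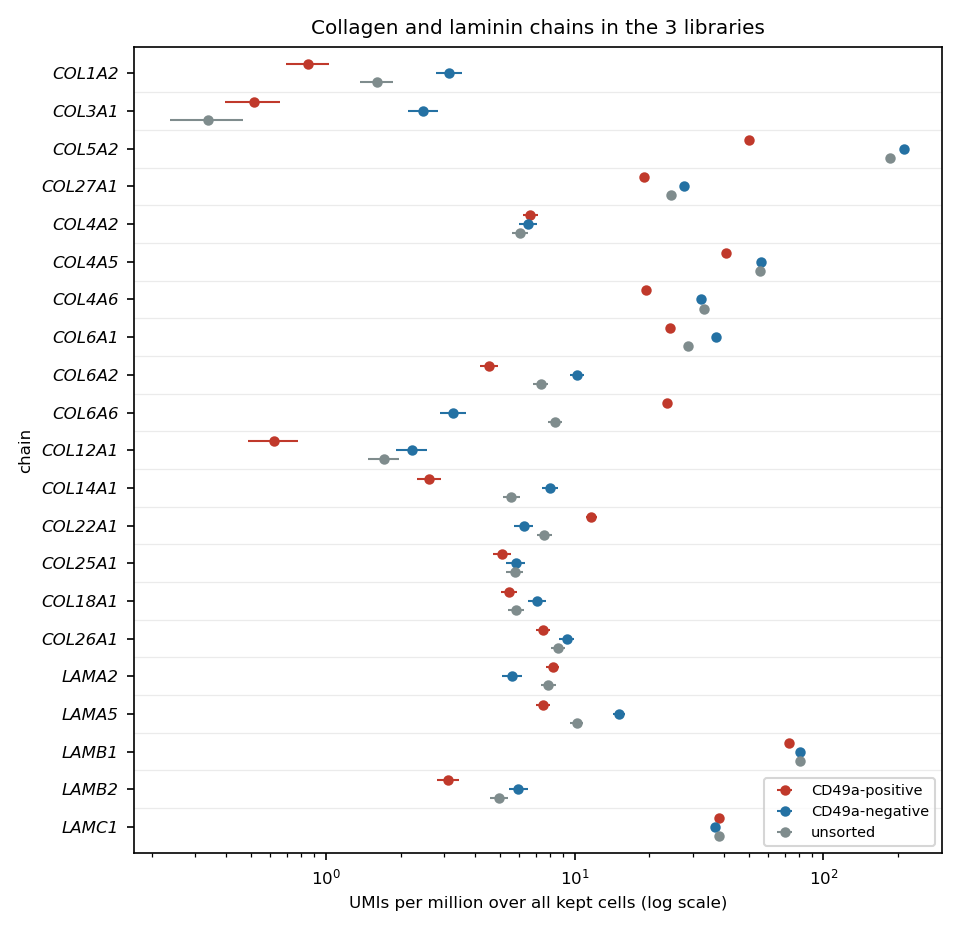
Level in CPM (log axis) of each described chain in all kept cells, with 1 point for each library and its 95% Poisson interval. The positive point of COL6A6, at 23.5 CPM, lies right of its other 2 points, and COL5A2 lies at 50.4 CPM there against 209.9 in the negative library.

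Among the fibrillar chains, COL5A2 (ENSG00000204262; GENCODE 29, GRCh38, chromosome 2, 189031896 to 189225312, minus strand) was the one counted between the sorted libraries over all cells. It encodes the alpha 2 chain of collagen V, which joins collagen I fibres and limits their width. Its level was 50.4 CPM in the positive library, 209.9 in the negative and 185 in the unsorted, a ratio of 4.17 (4.05 to 4.29) of negative over positive. The positive library stood apart from the other two. By class, enterochromaffin-like cells held 665, 759 and 799 CPM, beta-like cells 28.2, 44.7 and 47.1 CPM, and alpha-like cells 10.1, 17.5 and 10.9 CPM. The class levels did not overlap across the 3 libraries: enterochromaffin-like cells were 16.9-fold to 23.6-fold above beta-like cells and 43.3-fold to 73.4-fold above alpha-like cells of the same library. Cluster 8, without a name, held 207, 275 and 329 CPM, between the enterochromaffin-like clusters and the others.

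With every cell reduced to 10000 UMIs, a COL5A2 UMI was found in 85.2% of positive, 96.3% of negative and 94.9% of unsorted enterochromaffin-like cells. In beta-like cells the shares were 14.2%, 21.2% and 21.7%, and in alpha-like cells 11.3%, 11.9% and 9.52%. Before this reduction the beta-like shares were 37.8%, 42.0% and 50.8%, at median depths of 59217, 44787 and 59955 UMIs. TPH1, the serotonin synthesis enzyme that marks enterochromaffin cells, was found in 15.2%, 28.5% and 28.2% of the reduced beta-like cells and in 2.93%, 8.30% and 5.84% of the alpha-like cells. In beta-like cells both transcripts were thus least often found in the positive library. Within this class COL5A2 was 0.631 (0.585 to 0.680) of the negative level in the positive library. What part RNA from other cells had in these beta-like values was not tested.

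COL27A1 (chromosome 9, 114155560 to 114312511, plus strand), a fibrillar collagen of cartilage, followed alpha-like cells. These held 66.4, 56.0 and 61.9 CPM, beta-like cells 14.7, 18.1 and 16.2 CPM, and enterochromaffin-like cells 18.1, 10.1 and 8.10 CPM. Over all cells its levels were 19.1, 27.6 and 24.4 CPM, a 1.44-fold difference (1.36 to 1.53) between the negative and the positive library that did not reach the rule. Alpha-like cells were at least 3.09-fold above beta-like cells in every library. The highest cluster was 4, an alpha-like cluster, at 80.7 CPM over the 3 libraries together. It met the naming rule narrowly, with a lead of 0.27 where 0.25 was needed. The other alpha-like cluster, 5, held 42.6 CPM.

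COL1A2 and COL3A1, chains of the collagens I and III that fibroblasts make, were described only because of the enterochromaffin-like class. There COL3A1 had 1, 122 and 3 UMIs (0.265, 8.59 and 0.172 CPM), a ratio of 32.4 (5.70 to 1288) of the negative over the positive. COL1A2 had 4, 159 and 14 UMIs (1.06, 11.2 and 0.805 CPM), 10.5-fold (4.04 to 39.2) above the positive in the negative library. Nearly all of this came from 2 cells. Over all 6618 kept cells, 7 held at least 10 UMIs of COL1A2 or COL3A1, a limit set after the values were seen: 0 positive, 4 negative and 3 unsorted, 2 of them in the enterochromaffin-like class and 5 in unnamed clusters. These 7 cells carried 46.7% of all COL1A2 UMIs, 59.9% of COL3A1 and 29.02% of FN1 (fibronectin). The 9 mesenchymal markers summed to 1005 CPM in them against 8.12 in the other kept cells, and the 5 markers of glia or neural crest to 399 against 2.34. The 13 beta cell markers summed to 487 CPM in them and to 54602 in the others. Without the 7 cells, enterochromaffin-like cells held 0.265, 0.143 and 0.172 CPM of COL3A1 and 1.06, 1.28 and 0.805 CPM of COL1A2, and neither chain could be counted.

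The network-forming chains COL4A5 (chromosome X, 108439844 to 108697545, plus strand) and COL4A6 (chromosome X, 108155607 to 108439497, minus strand), whose upstream bases are printed above, had the same order of classes at one end. In enterochromaffin-like cells COL4A5 stood at 138, 132 and 145 CPM, against 37.8, 44.7 and 41.5 in beta-like cells and 39.0, 37.5 and 33.4 in alpha-like cells. COL4A6 stood at 78.1, 102 and 111 CPM in enterochromaffin-like, 18.8, 23.2 and 21.5 in beta-like and 5.67, 6.22 and 6.35 in alpha-like cells. Both were thus highest in the enterochromaffin-like class of every library, COL4A5 by 2.96-fold to 3.65-fold over beta-like cells and COL4A6 by 4.16-fold to 5.17-fold. They parted in alpha-like cells: COL4A6 was 3.31-fold to 3.72-fold lower there than in beta-like cells, while COL4A5 did not reach 2-fold. Cluster 3, the largest enterochromaffin-like cluster, had 132, 175 and 172 CPM of COL4A5 and 73.0, 117 and 122 CPM of COL4A6. It was the highest cluster for both chains in the negative and unsorted cells, while in the positive library cluster 13 was highest, with 279 CPM of COL4A5 on 47 UMIs and 148 CPM of COL4A6 on 25 UMIs. Over all cells COL4A5 had 40.7, 56.1 and 55.4 CPM, and COL4A6 19.4, 32.4 and 33.1 CPM. The positive library was lowest for both, by 1.38-fold (1.33 to 1.44) and 1.66-fold (1.57 to 1.76) against the negative, short of the rule.

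COL4A2, the partner of COL4A1 in the commonest form of collagen IV, differed little between libraries, and by less than 2-fold between endocrine classes. It had 6.64, 6.49 and 6.04 CPM over all cells, a ratio of 1.02 (0.917 to 1.14) of positive over negative. In beta-like cells it had 6.77, 6.54 and 5.99 CPM, in enterochromaffin-like cells 6.90, 5.21 and 5.06, and in alpha-like cells 3.89, 4.90 and 4.22. Unnamed cluster 9, described below, stood above these classes in every library, at 10.3, 17.2 and 18.0 CPM. COL4A1 itself stayed under the level, at 1.57, 2.26 and 1.42 CPM over all cells. COL4A3 and COL4A4, the chains that join COL4A5 in kidney and lung, stayed under 1 CPM in every library.

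COL6A6 (ENSG00000206384; chromosome 3, 130560334 to 130678155, plus strand) was the chain with its highest level in the CD49a-positive library by the widest margin. It encodes the alpha 6 chain of collagen VI, one of the long chains thought to take the place of alpha 3 beside alpha 1 and alpha 2. Over all cells it had 23.5, 3.25 and 8.36 CPM, 7.24-fold higher (6.39 to 8.22) in the positive library than the negative and 2.81-fold higher (2.61 to 3.03) than in the unsorted. The unsorted library was in turn 2.57-fold (2.25 to 2.95) above the negative. ITGA1 had the same order, 108, 33.2 and 66.2 CPM, a 3.27-fold difference (3.14 to 3.40).

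COL6A6 was a beta-like transcript in all 3 libraries. Beta-like cells held 28.4, 11.2 and 16.4 CPM, enterochromaffin-like cells 1.06, 0.282 and 1.26 CPM on 4, 4 and 22 UMIs, and alpha-like cells 1.16, 0.0506 and 0.457 CPM on 11, 1 and 9 UMIs. Within beta-like cells alone the positive library stayed above the negative by 2.54-fold (2.22 to 2.91), the only chain of 15 to pass the rule there, where 0.247% of all genes passed. It fell short of the rule with a looser cell filter and with finer clusters, at log2 ratios of 0.98 and 0.84 against 1.27. The order of the 3 libraries held in each of the 4 beta-like clusters. Levels were 40.0, 11.6 and 23.5 CPM in cluster 0 and 18.6, 10.1 and 11.0 in cluster 1. They were 21.7, 7.20 and 10.1 CPM in cluster 2 and 36.0, 27.3 and 29.3 in cluster 6. The gap was 1.73-fold (1.60 to 1.87) between the positive and the unsorted beta-like cells. The most filled beta-like cluster was 0 in both sorted libraries and 2 in the unsorted one.

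The transcript was uneven among cells. A COL6A6 UMI was present in 821 of the kept cells, and 87 cells held more than 50% of its 4071 UMIs. Cells with at least 10 UMIs numbered 96, of which 95 were beta-like and 1 was in the proliferating cluster. They made up 4.49%, 0.713% and 2.67% of beta-like cells. In beta-like cells reduced to 10000 UMIs, 12.8% of positive (exact binomial interval 11.2 to 14.6%), 7.80% of negative (5.40 to 10.8%) and 9.37% of unsorted cells (7.42 to 11.6%) had a COL6A6 UMI. Before reduction the shares were 28.4%, 18.3% and 24.7%. In alpha-like cells the shares were 0.837%, 0 of 494 cells, where the 3 counts that a count of 0 allows would be 0.607% and the exact upper limit is 0.744% of cells with a UMI, and 0.649%.

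The other described collagen VI chains were lowest in the positive library. COL6A1 had 24.1, 37.0 and 28.6 CPM and COL6A2 4.53, 10.3 and 7.32 CPM over all cells. COL6A2 stood 2.26-fold higher (2.03 to 2.52) in the negative library and just met the rule. Without the 7 cells rich in COL1A2 or COL3A1 its ratio was 2.20 and it no longer met the rule. Of the endocrine classes, COL6A2 was highest in alpha-like cells, with 10.8, 16.6 and 13.8 CPM. Beta-like cells held 3.73, 6.96 and 4.73 CPM and enterochromaffin-like cells 1.86, 3.10 and 2.24. Unnamed cluster 9 held more than the alpha-like class in every library, 15.4, 23.0 and 21.2 CPM. COL6A1 had 34.5, 45.1 and 38.4 CPM in alpha-like, 22.8, 27.8 and 22.3 in beta-like and 21.2, 29.99 and 22.8 in enterochromaffin-like cells. COL6A3, the usual partner of both, had 9 UMIs in all kept cells together.

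**Figure D2:**
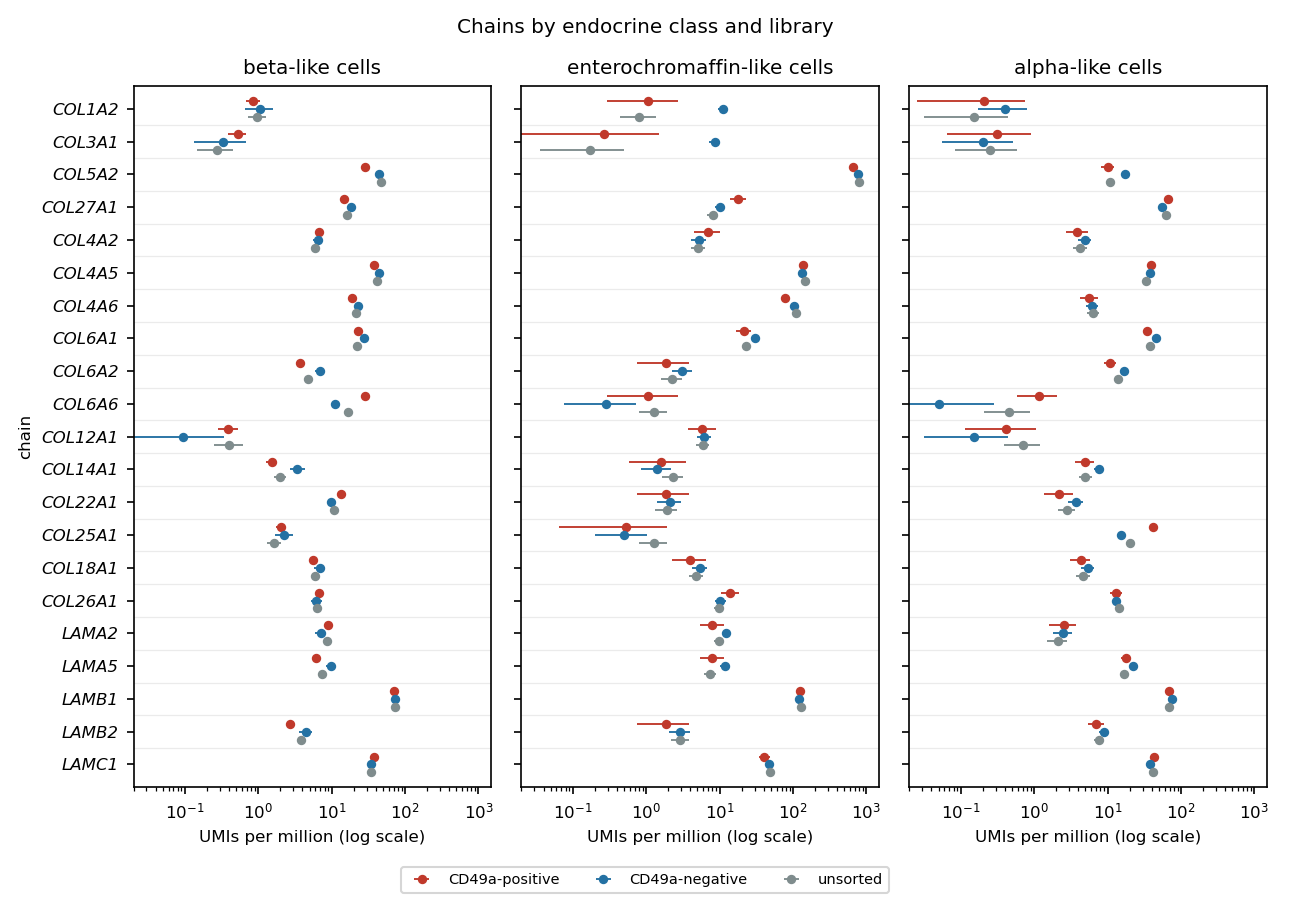
CPM (log axis) of the described chains in beta-like, enterochromaffin-like and alpha-like cells, 1 point per library with its 95% Poisson interval. COL5A2, COL4A5 and COL4A6 each lie farther right in the enterochromaffin-like panel than in the other panels. The same holds for COL6A6 in the beta-like panel, and for COL27A1 and COL25A1 in the alpha-like panel.

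Of the fibril-associated chains, COL14A1 (chromosome 8, 120059780 to 120372036, plus strand), which coats collagen I fibrils, was 3.05-fold higher (2.66 to 3.49) in the negative library, at 2.61, 7.97 and 5.58 CPM. Alpha-like cells held 4.94, 7.64 and 4.98 CPM, but its highest level was in unnamed cluster 9, led by GHRL and SST, the genes of ghrelin and somatostatin, with 36.3, 48.0 and 50.9 CPM. Cluster 9 made up 3.26%, 9.56% and 6.85% of the kept cells. On all 3 libraries together it was also the highest cluster for COL6A2, COL6A1, COL4A2, COL18A1, LAMA5 and LAMB2. COL22A1 (chromosome 8, 138588235 to 138914006, minus strand), a collagen of tissue junctions, ran the other way with 11.7, 6.24 and 7.55 CPM, a 1.87-fold difference (1.69 to 2.07) in favour of the positive library. Of the endocrine classes, COL22A1 was highest in beta-like cells, 13.3, 9.90 and 10.9 CPM. Enterochromaffin-like cells held 1.86, 2.11 and 1.90 CPM and alpha-like cells 2.21, 3.69 and 2.80. Unnamed cluster 9 held 15.4, 13.6 and 10.3 CPM. COL12A1 reached the level in enterochromaffin-like cells only, with 5.84, 6.196 and 5.86 CPM, and cluster 13 of that class, 62 cells, held 40.7 CPM on all 3 libraries together.

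COL25A1 (chromosome 4, 108808725 to 109302752, minus strand) encodes a transmembrane collagen first found in amyloid plaques. Over all cells the libraries were close, at 5.12, 5.81 and 5.76 CPM. It was an alpha-like transcript, with 42.1, 15.1 and 20.02 CPM there, 2.01, 2.27 and 1.66 in beta-like and 0.531, 0.493 and 1.26 in enterochromaffin-like cells, on 2, 7 and 22 UMIs. Within alpha-like cells the positive library was 2.80-fold (2.40 to 3.26) above the negative and 2.10-fold (1.83 to 2.42) above the unsorted. It was the only chain of 15 to pass the rule between the sorted libraries in this class, where 0.235% of all genes passed. Cluster 4 was only narrowly named alpha-like. Its lead was 0.27 where 0.25 was needed, with 4 alpha markers raised against 3 of another endocrine class. With a stricter rule for naming clusters, a lead of 0.5, cluster 4 lost that name. The log2 ratio of COL25A1 in the class was then 0.58 instead of 1.42, short of the 2-fold rule. The 2 alpha-like clusters were filled unequally: cluster 4 held 60% of alpha-like cells in the positive library and 50.6% in the unsorted, while cluster 5 held 53.3% in the negative. Cluster 4 had 60.5, 21.2 and 29.4 CPM, and cluster 5 had 16.6, 10.8 and 11.8 CPM, so the positive library was highest in both. Alpha-like cells with at least 10 COL25A1 UMIs numbered 9, 4 and 8. With every cell reduced to 10000 UMIs, 18.4% of positive (13.7 to 23.9%; before reduction 33.1%), 9.11% of negative (6.72 to 12.0%; 22.0%) and 10.4% of unsorted alpha-like cells (7.76 to 13.5%) had a UMI of it (22.7% before). In reduced beta-like cells, at higher median depths, the shares were 1.81%, 1.22% and 1.03%.

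COL18A1, the basement membrane collagen from which endostatin is cut, had 5.46, 7.08 and 5.83 CPM over all cells. It had 5.54, 6.87 and 5.89 CPM in beta-like, 3.98, 5.35 and 4.77 in enterochromaffin-like and 4.31, 5.36 and 4.68 in alpha-like cells. COL26A1 had 7.48, 9.29 and 8.57 CPM over all cells. It was lowest in beta-like cells of every library, with 6.72, 6.204 and 6.33 CPM, against 13.8, 10.3 and 9.71 in enterochromaffin-like and 13.1, 13.2 and 14.2 in alpha-like cells. Alpha-like cells were 1.96-fold, 2.14-fold and 2.24-fold above beta-like cells, and the rule was met in the unsorted library but not in all 3. Neither chain was counted between libraries, or between classes in every library.

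**Figure D3:**
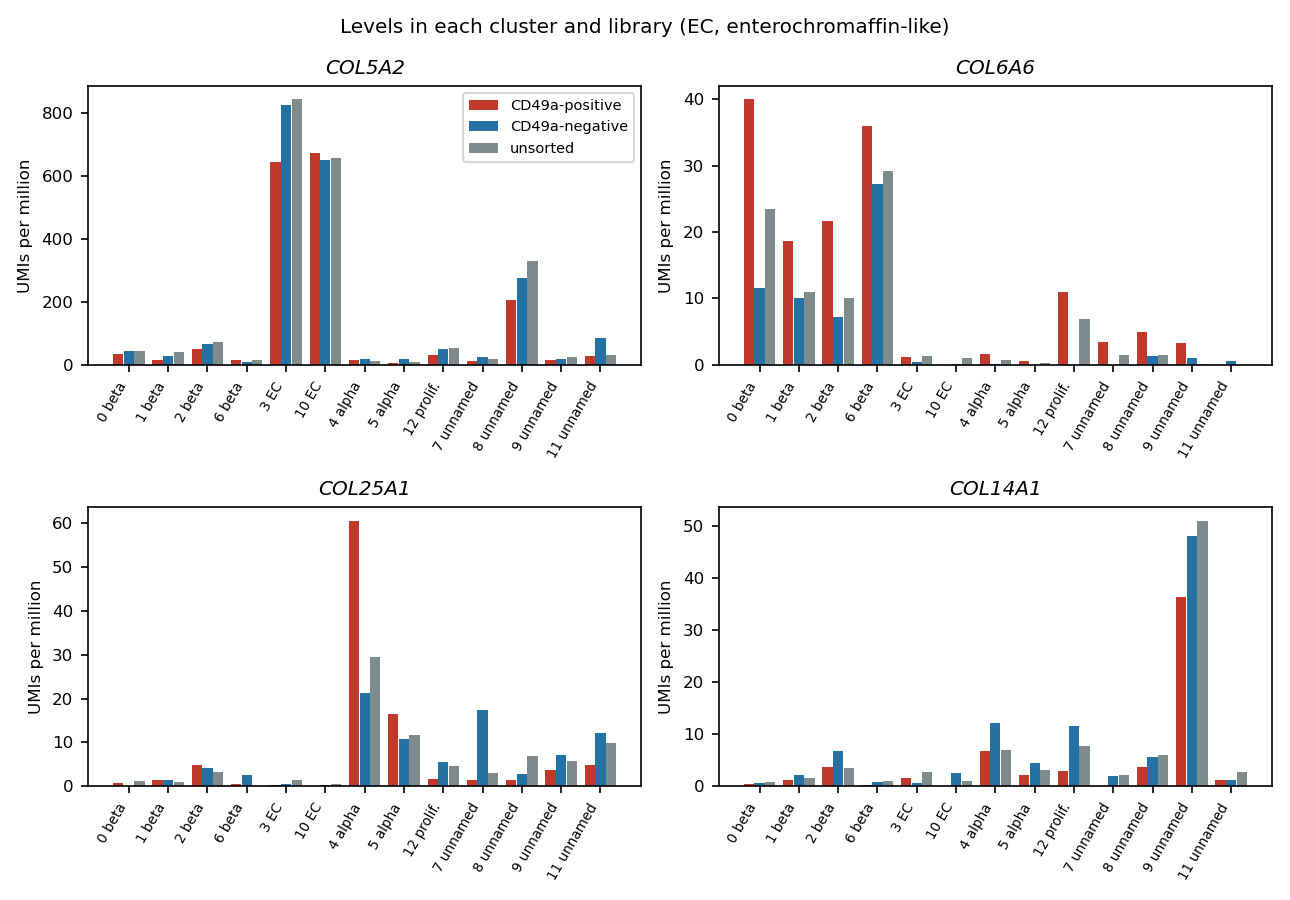
CPM of 4 chains in the 13 clusters with at least 10 cells in every library, 1 bar per library, with clusters grouped by class. COL6A6 is highest in the positive library in all 4 beta-like clusters, and COL14A1 stands out in unnamed cluster 9.

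No laminin chain was counted between any pair of libraries over all cells. At most 2 alpha, 2 beta and 2 gamma chains could be compared. Of all genes, 2.42% passed between positive and negative, 0.7% between positive and unsorted and 0.129% between negative and unsorted. With so few chains, a count of 0 is near what those shares would give. LAMB1 (chromosome 7, 107923799 to 108003255, minus strand) and LAMC1 (chromosome 1, 183023460 to 183145592, plus strand), the beta and gamma chains of most laminins, were nearly level. LAMB1 had 72.9, 80.3 and 80.3 CPM, a 1.10-fold difference (1.07 to 1.14) between the negative and the positive library. LAMC1 had 37.9, 36.7 and 38.2 CPM, a ratio of 1.03 (0.987 to 1.08) of positive over negative. LAMB1 stood higher in enterochromaffin-like cells (126, 121 and 127 CPM) than in beta-like (71.6, 72.2 and 73.6) and alpha-like cells (68.1, 76.5 and 69.2), by less than 2-fold. The ranges over the 3 libraries did not overlap between the enterochromaffin-like class and the other two.

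Of the alpha chains, LAMA5, the long chain of adult basement membranes, had 7.47, 15.1 and 10.2 CPM. Its negative level was 2.02-fold (1.85 to 2.20) the positive one, but with 1 CPM added it fell short of the rule. Of the endocrine classes, alpha-like cells had the highest level in every library, 18.0, 22.2 and 17.0 CPM. Beta-like cells held 6.02, 9.71 and 7.43 CPM and enterochromaffin-like cells 7.97, 11.8 and 7.42. Unnamed cluster 9 held 16.2, 23.9 and 19.1 CPM. LAMA2, the alpha chain of muscle laminin, had 8.17, 5.63 and 7.85 CPM. It was low in alpha-like cells, with 2.52, 2.48 and 2.08 CPM against 8.92, 7.103 and 8.61 in beta-like cells. The beta-like clusters were uneven, with 17.9, 13.4 and 18.9 CPM in cluster 0 and 4.18, 4.24 and 3.75 in cluster 1. Enterochromaffin-like cells held 0.893, 1.74 and 1.13 times the beta-like level. LAMB2, which replaces LAMB1 in mature membranes, had 3.11, 5.95 and 4.97 CPM. Of the endocrine classes, LAMB2 was highest in alpha-like cells, with 7.04, 8.90 and 7.67 CPM, against 2.67, 4.45 and 3.88 in beta-like cells. Unnamed cluster 9 held 6.61, 9.73 and 10.8 CPM of it. In each class some alpha, beta and gamma chain reached 5 CPM, LAMA5 with LAMB1 and LAMC1 in every class and library.

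The 3 endocrine classes were also compared pair by pair. Classes were cut from the same cells, so the counts describe the cells and test nothing. Between enterochromaffin-like and beta-like cells, 12 chains could be compared in every library: COL5A2, COL4A5 and COL4A6 were at least 2-fold higher in enterochromaffin-like cells of all 3 libraries, and COL6A6 and COL22A1 in beta-like cells. Of all genes, 5.3% passed the same rule. Between alpha-like and beta-like cells, 10 of 18 chains differed, against 6.49% of all genes. Those higher in alpha-like cells included COL25A1, COL27A1, COL6A2 and LAMA5, and those higher in beta-like cells were COL5A2, COL4A6, COL6A6, COL22A1 and LAMA2. Between enterochromaffin-like and alpha-like cells, COL5A2, COL4A5 and COL4A6 were higher in the first and COL25A1, COL27A1, COL6A2 and LAMB2 in the second, 7 of 13 chains, against 10.5% of all genes. The summed level of all 56 chains was 1180, 1314 and 1344 CPM in enterochromaffin-like cells, 346, 369 and 358 in beta-like cells, and 407, 409.6 and 384 in alpha-like cells. COL5A2 alone made up more than 50% of the enterochromaffin-like sum.

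Within enterochromaffin-like cells, COL1A2 and COL3A1 were the 2 of 14 chains counted between the sorted libraries, both lower in the positive, where 2.27% of all genes passed. The negative library also had both above the unsorted, 2 of 15 chains with 0.386% of all genes passing. The class had 93 positive cells against 405 negative and 469 unsorted cells. Cluster 3 held most of it in every library, 79.6%, 63.7% and 73.6%. COL5A2 was 0.876 of the negative level (0.838 to 0.915) in the positive library, and COL4A5 was 1.04 of it (0.944 to 1.15). COL27A1 was 2.23-fold (1.64 to 2.996) above the unsorted level in positive cells of this class, the 1 of 10 chains counted there, where 0.617% of all genes passed. In beta-like cells no chain was counted between the positive and the unsorted library, of 14, or the negative and the unsorted, of 15, where 0.0583% and 0.0991% of all genes passed. In alpha-like cells COL25A1 was the 1 of 13 counted between positive and unsorted, where 0.212% passed, and none of 15 between negative and unsorted, where 0.122% passed.

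Averaging over the 13 clusters with at least 10 cells in every library, each weighted by its share of unsorted cells, gave both sorted libraries the same mix of clusters. COL5A2 then had 158 CPM in the positive and 197 in the negative library, 1.25-fold higher in the negative, against 4.17-fold over all cells as they were. COL14A1 went from 3.05-fold to 1.53-fold and COL6A2 from 2.26-fold to 1.74-fold. COL6A6 kept a 2.40-fold difference, with 11.6 and 4.84 CPM, and was the 1 of 19 chains that passed the rule as higher in the positive library. COL3A1 passed it as lower there, with 0.405 against 9.91 CPM, a value that rests on the few cells described above. Of all genes, 0.337% passed the rule at this mix. COL25A1, slightly lower in the positive library over all cells, was 1.52-fold higher there at the fixed mix.

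**Figure D4:**
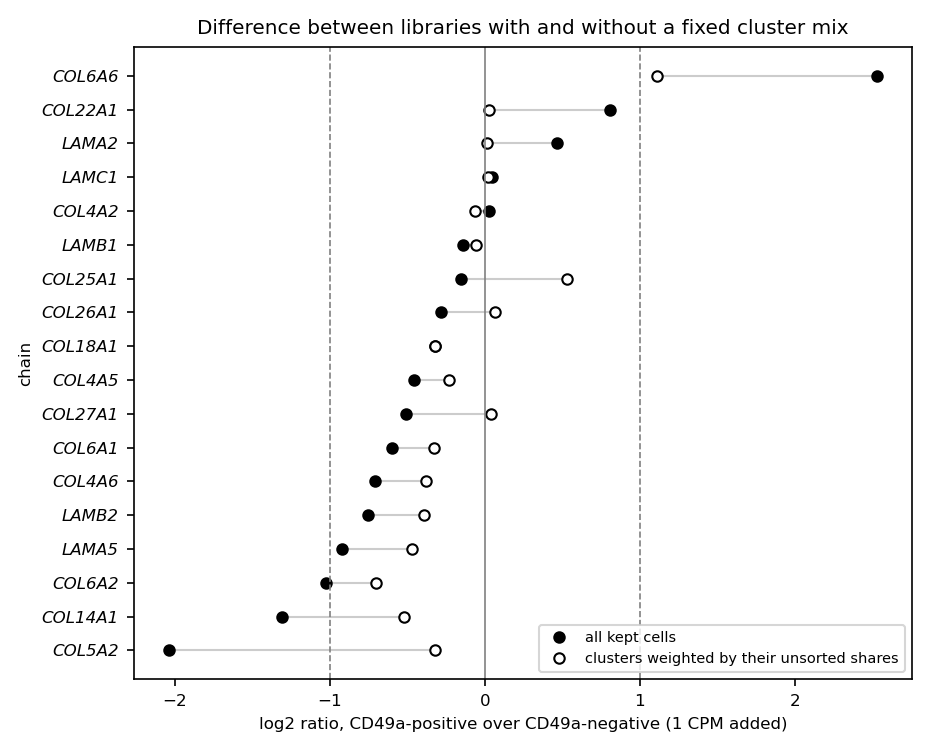
Log2 ratio, positive over negative, after adding 1 CPM, for described chains compared over all kept cells (filled) and after weighting clusters by their unsorted shares (open), with dashed lines at 2-fold. COL6A6 is the chain beyond a dashed line in both, and COL5A2 goes from the far left to inside the lines.

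Other gene lists were compared between the sorted libraries, where 2.42% of all 12483 genes passed the rule. Among the receptors of collagen and laminin, 8 of 16 genes could be compared. Only ITGA1, the gene of the sorted protein itself, was counted, higher in the positive library. Its partner ITGB1 had 349, 420.4 and 381 CPM, DDR1, a collagen-binding kinase, 74.7, 94.8 and 81.0 CPM, and BCAM, a laminin receptor, 153.5, 222.5 and 194 CPM. The median log2 ratio of the 8 was -0.15. Of 32 genes for collagen synthesis and crosslinking, 22 could be compared, with a median of 0.03, and P3H2, which hydroxylates collagen IV prolines, was counted as higher in the positive library with 9.70, 3.15 and 5.59 CPM. ADAMTS2, which trims procollagens, had 84.5, 54.6 and 66.7 CPM and LOXL4, a crosslinking oxidase, 7.69, 14.4 and 8.13 CPM, both under 2-fold. Of 16 partners in the basement membrane, 4 could be compared and FN1 was counted, lower in the positive library, with 3.39, 10.1 and 3.85 CPM, and without the 7 cells above 3.39, 4.80 and 3.49 CPM. None of the 5 proteases and inhibitors that could be compared, of 16, was counted.

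Markers of the cells that make most matrix in tissues were low. The 9 mesenchymal markers summed to 5.76, 14.7 and 9.55 CPM, with THY1 and TAGLN above 5 CPM in the negative library and DCN and LUM under 0.1 CPM in all 3. The 8 endothelial markers summed to 20.7, 16.2 and 17.4 CPM, nearly all of it EGFL7, while CDH5 had 0 UMIs in the negative and the unsorted library. The 5 glial markers summed to 1.56, 4.90 and 2.78 CPM. The mesenchymal and glial sums were lowest in the positive library, as were COL5A2, COL14A1 and COL6A2, and their part in those 3 results was not tested.

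The other 34 chains stayed under the level in every library and class. Their highest level over all cells ranged from 0.0327 to 3.10 CPM with a median of 0.686, and 24 of them stayed under 1 CPM in all 3 libraries. Every one had at least 7 UMIs. The most UMIs belonged to LAMA1 (934), with 2.90, 3.04 and 2.94 CPM, COL16A1 (863), with 2.41, 3.10 and 2.79 CPM, and LAMB3 (794), with 2.97, 1.93 and 2.45 CPM. COL1A1, the partner of COL1A2 in collagen I, had 1.09, 0.9696 and 0.9497 CPM.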

How the data were processed

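The authors deposited whole-number UMI counts per gene and cell barcode for 3 libraries, made with Cell Ranger 7.1.0 on GRCh38, per the submitters' processing notes; the kit version and whether intronic reads were counted are not given in the sources used here. Counts of introns would favour long genes. The cell filter asked for 1000 or more genes and no more than 20% of UMIs from mitochondrial genes, and 8 of 6626 marked by Scrublet were removed (0.121%, too few for a caller that works, so doublets remain). Scanpy 1.11.5 clustered cells on 2000 variable genes without the 56 chains, 30 components, 20 neighbours, Leiden resolution 1, giving 15 clusters. A cluster was named for an endocrine class when at least 3 of its markers, and more than of any other endocrine class, stood 1.5-fold above the median of the other clusters, with a lead of 0.25 mean log2 over the next class and no list with as many markers among the top 10 genes, unless none had any there. A cluster with 5 or more proliferation markers raised was called proliferating, and clusters under 1/3 of their libraries' depth stayed unnamed without own markers in the top 10; that rule was written once the clusters were known. UMIs were summed per library and class and divided by their total (CPM). Sums have exact Poisson intervals, shares exact binomial (Clopper-Pearson) ones, and ratios the exact conditional one, at 95%; they cover counting error only. With 1 library per group there was no test. Chains with at least 5 CPM and 50 UMIs in a library or in a class were named; 1 of them is counted but not reported here. Members and lists were chosen with earlier results of these data known. The rule was run on counts simulated with Poisson error only, at the depths of the positive and negative library, with 200 genes changed. It called 100% of 100 genes changed 3-fold and 100% of 100 changed 8-fold, with 0 wrong calls among 12161 unchanged genes. Such counts hold no variation between cells or libraries, so this checks the working of the rule and gives no error rate for these data. Positions are from GENCODE 29 by gene identifier (56 of 56), and upstream bases from RefSeq (41 of 56 chains matched). Alternatives covered the CPM added, level minimum, scaling, cell filter, cell weight, depth, resolution and naming.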

Additional observations from a re-analysis of the deposited data

Results flagged for a closer look

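For 2 chains the positive and the negative library differed in opposite directions in different classes, with counting intervals that exclude 1 on both sides. The chains that could be compared numbered 15 in beta-like, 14 in enterochromaffin-like and 15 in alpha-like cells. The share of all genes that differ in this way was not counted, so 2 chains cannot be called many or few. The difference between classes was not tested, and with 1 library per group its replicate error is unknown. LAMA2 was 1.26-fold (1.06 to 1.504) as high in positive as in negative beta-like cells but 0.643-fold (0.421 to 0.951) in enterochromaffin-like cells, on 30 positive UMIs. COL27A1 was 1.78-fold (1.31 to 2.39) as high in enterochromaffin-like cells and 1.19-fold (1.07 to 1.31) in alpha-like cells, but 0.810-fold (0.723 to 0.909) in beta-like cells.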

How the results depend on the processing

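No paired analysis was possible because each group had 1 library and the labels carry no replicate numbers. Of 153 counts of chains recomputed under 17 alternatives, 118 stayed within 1.5 times the reported count. The 4 alternatives added after seeing the data include the one without the 7 cells rich in COL1A2 or COL3A1. With 10 CPM added, the counts fell to 2 (positive against negative over all cells), 1 (positive against unsorted), 0 (negative against unsorted, beta-like, enterochromaffin-like and fixed mix) and 3 (alpha-like against beta-like). With a minimum of 50 CPM, which leaves few chains to compare, they were 1, 1 and 0 over all cells, 0 within each class and at the fixed mix, 3 for enterochromaffin-like against beta-like, 1 for alpha-like against beta-like and 4 for enterochromaffin-like against alpha-like. With no minimum, negative against unsorted and the alpha-like class gave 2 each. With cells weighted equally, positive against unsorted gave 4, negative against unsorted 0 and the enterochromaffin-like class 1. With every cell reduced to 10000 UMIs, the enterochromaffin-like class gave 0 and alpha-like against beta-like 4. With a filter of 3000 genes and 10% mitochondrial UMIs, the beta-like class gave 2, the enterochromaffin-like and alpha-like classes 0, and alpha-like against beta-like 6. With 500 genes and 30%, and at resolution 2, the beta-like class gave 0: COL6A6's log2 ratio there was 0.98 and 0.84, and 0.86 with 10 CPM added, against 1.27 as reported. At resolution 0.5 the fixed mix and the enterochromaffin-like class gave 1 each. The fixed mix gave 1 without shallow clusters 7 and 14. Without the 7 cells the fixed mix gave 1 and the enterochromaffin-like class 0, and COL3A1's log2 ratio there turned from -2.92 to 0.15. COL6A6 over all cells lay between 1.34 and 2.82 and COL5A2 between -2.06 and -1.86 on the log2 scale under the alternatives run. COL25A1 in alpha-like cells was 0.58 with a naming lead of 0.5, against 1.42 as reported. Over all cells COL25A1 turned from -0.15 to 0.13 with equal cell weights and 0.29 with every cell reduced, and it was not counted in any of them. The causes of these changes were not tested. The share of all genes passing was not counted under the alternatives, so changes in the counts of chains cannot be set against it. Of 728 single values, 559 moved by no more than a set margin. For ratios between libraries the margin was 1/2 the width of the counting interval on the log2 scale. For ratios between classes it was the standard deviation of the log2 ratios of the 3 libraries. The fixed mix has no run with another cell filter, cell weight or depth.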

Other observations

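Barcodes that failed the filter carried more COL5A2 than kept cells in every library: 60.7 against 50.4 CPM in the positive, 354 against 209.9 in the negative and 291 against 185 in the unsorted one. COL12A1 stood at 77.1, 33.5 and 37.6 CPM in enterochromaffin-like cluster 13, on 13, 18 and 27 UMIs. COL6A6 was among the leading genes of beta-like clusters 0 and 6, and COL5A2 among those of cluster 3, although neither was used to make the clusters. ITGA1 in clusters 0 and 6 was 149 and 144 CPM in the positive library, 101 and 106 in the negative and 135 and 126 in the unsorted one.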
